A study of Homo sapiens with 4 samples.

Results

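The BCL2 family decides whether a cell commits to death through its mitochondria, and 10 of its genes were followed here in LCC9 cells given the compound A7. The genes are BCL2, BCL2L1, MCL1, BAD, BAX, BAK1, BID, BIK, BBC3 and PMAIP1, chosen by name, and all 10 were among the 23605 gene symbols of the tables. LCC9 is a human breast cancer line, resistant to tamoxifen per the labels, which also list its estrogen receptor alpha as present and wild type. The cells grew in phenol red-free medium with charcoal-stripped serum, which is low in estrogen, and were harvested after 24 h with A7 (2 libraries) or with the DMSO vehicle (2 libraries). A7 is called a mimetic of the tumour suppressor BRCA1 in the labels, where its catalogue number is not given consistently, so only the code name is used. The series title asks whether the compound lowers NF-kB activity through estrogen receptor bound at a promoter. All 4 libraries come from 1 line and no dose is stated. The labels do not say whether replicates were grown separately. The p-values below therefore cover only the variation among these libraries, part of which may be technical.

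Proteins of this family share short BCL2 homology (BH) regions and meet at the outer mitochondrial membrane. BCL2, BCL-XL (from BCL2L1) and MCL1 hold the pore-forming effectors BAX and BAK in check, and the BH3-only proteins BAD, BID, BIK, PUMA (from BBC3) and NOXA (from PMAIP1) release that hold or activate the effectors directly. In breast cancer BCL2 is a classical estrogen-induced gene, and BCL2L1 is a known NF-kB target.

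RNA was measured as FPKM, a fragment count set against transcript length and library size. Values called scaled FPKM are FPKM divided by a library factor between 0.9899 and 1.02, and levels of different genes are compared on this per-length scale. Depth was low, roughly 4100000 and 3200000 fragments in the A7 libraries and 2200000 in each vehicle library, estimated from the steps of low values. All 9 luminal epithelial markers reached a mean FPKM of 1, with 4 averaging more and 5 less with A7. Their summed level was 938 to 1197 scaled FPKM with A7 and 1101 to 1405 with vehicle. Of 7 basal or mesenchymal markers only VIM reached that mean, with KRT5 and KRT14 at 0 in every library, and 5 blood and endothelial markers summed to at most 0.0961 scaled FPKM in any library. In RNA from whole cultures, fewer cells with a transcript and less of it per cell cannot be told apart.

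Because the study asks about binding at promoters, the promoters of 3 members are shown. BCL2 and BAD are the members with an entry in the promoter table whose A7 and vehicle libraries did not overlap, and BAX is the member that varied most between replicates. Each runs 5′ to 3′ along the gene's strand from 250 bases before to 50 bases after a RefSeq start (build GRCh38.p14). Capitals mark matches on either strand to the core estrogen receptor letters GGTCA, the SP1 box GGGCGG and the CCAAT box, and no marked match overlaps another in these sequences.
BCL2, chr18:63319720-63320019, minus strand: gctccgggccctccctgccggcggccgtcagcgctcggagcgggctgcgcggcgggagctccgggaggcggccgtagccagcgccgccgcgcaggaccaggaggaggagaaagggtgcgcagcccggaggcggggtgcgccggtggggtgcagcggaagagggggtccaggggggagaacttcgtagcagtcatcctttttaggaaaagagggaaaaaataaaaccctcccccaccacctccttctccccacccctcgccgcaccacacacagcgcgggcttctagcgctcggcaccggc
BAD, chr11:64284655-64284954, minus strand: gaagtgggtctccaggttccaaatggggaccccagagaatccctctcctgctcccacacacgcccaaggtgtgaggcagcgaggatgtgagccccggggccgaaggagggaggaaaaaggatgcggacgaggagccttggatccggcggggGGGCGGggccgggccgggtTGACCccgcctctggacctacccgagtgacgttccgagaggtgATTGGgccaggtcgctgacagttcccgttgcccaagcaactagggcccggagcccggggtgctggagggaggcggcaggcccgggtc
BAX, chr19:48954625-48954924, plus strand: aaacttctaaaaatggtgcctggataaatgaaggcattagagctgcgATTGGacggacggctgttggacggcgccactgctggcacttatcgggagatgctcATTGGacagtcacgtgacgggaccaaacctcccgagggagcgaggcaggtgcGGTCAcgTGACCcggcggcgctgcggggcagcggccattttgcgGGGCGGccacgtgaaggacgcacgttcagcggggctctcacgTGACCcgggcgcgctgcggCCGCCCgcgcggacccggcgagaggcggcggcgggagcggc
The BCL2 window held none of these letters. BAD has 2 overlapping windows in the table, of which the first listed is shown. It held 1 SP1 box, 1 CCAAT box and 1 GGTCA, the other BAD window held 1, 1 and 2, and the BAX window held 2, 2 and 3. Across all 35116 windows in the table, 45% held an SP1 box, 34.6% a CCAAT box and 37.4% a GGTCA. Of the 10 members 8 had a window, 14 windows in all, and SP1 boxes occurred in 10 of the 14, CCAAT boxes in 5 and GGTCA in 5. The full estrogen response element, GGTCA and TGACC with 3 bases between them, was in 0 of the 14 windows and in 0.057% of all windows, and the 10-base NF-kB site in 0 of 14 and in 11.3% of all. These matches describe letters in a window and say nothing of whether a factor is bound.

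None of the members passed the test across all genes. Differences were tested with limma on log2(scaled FPKM + 1), with Benjamini-Hochberg adjustment over the 8952 genes whose FPKM averaged at least 1, and 9 of the 10 members did so. At an adjusted p under 0.05, 0 of the 9 were called, against 0.0223% of all tested genes. At an unadjusted p under 0.05, 2 were called, MCL1 and BAD, both higher with A7, where 2.21% of all genes were called higher, 3.55% lower and 5.76% in either direction. Groups did not overlap for 3 of the 9, MCL1 and BAD higher and BCL2 lower. Over all tested genes this occurred in 18.3% higher, 18.6% lower and 36.9% in either direction, so the members' share is near the background. BAD reached the FPKM minimum only through its A7 libraries, so its place in both counts was partly built in. The median log2 difference of the 9 tested members was 0.21, against -0.0019 for all tested genes. With BBC3, which was not tested, the median of all 10 was 0.25. Leaving out 1 library moved the median of all 10 between 0.026 (without vehicle replicate 1) and 0.49 (without vehicle replicate 2).

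**Figure D1:**
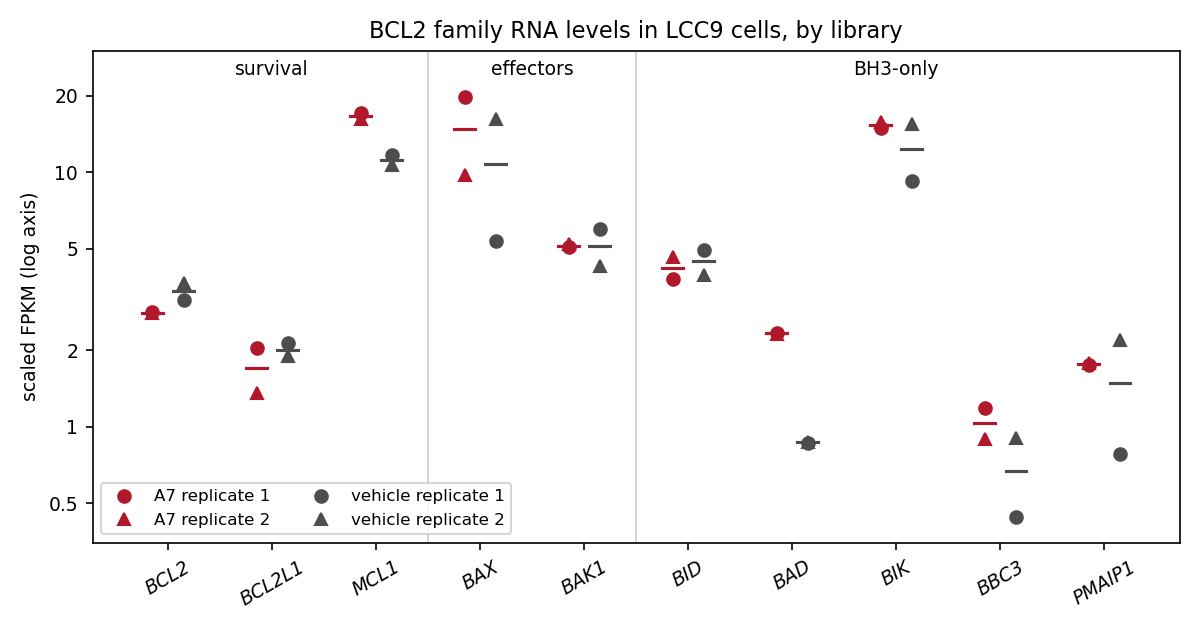
Scaled FPKM (log axis) of the 10 members in each library, with A7 in red left of vehicle in grey, circles for replicate 1, triangles for replicate 2 and a bar at each mean of 2. MCL1 and BAD lie higher and BCL2 lower in both A7 libraries, and BAX has the widest gap between replicates in both groups.

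None of the 3 survival members passed the test. MCL1, a short-lived survival protein that restrains BAK in particular, was at 17.2 and 16.1 scaled FPKM with A7 and at 11.6 and 10.7 with vehicle. Both A7 libraries lay above both vehicle libraries. The means were 16.6 ± 0.7 with A7 and 11.2 ± 0.7 with vehicle (SD, n = 2 each), 1.49-fold higher with A7. The log2 difference was 0.54 (SE 0.15, 95% interval 0.16 to 0.91, limma adjusted p = 0.806), which ranked 128 of 8952 genes by p in limma's fit. Of 2286 genes with a mean level between 0.5 and 2 times that of MCL1, 4.11% had a larger difference between groups.

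BCL2, the founding survival gene, was at 2.82 and 2.79 scaled FPKM with A7 and at 3.13 and 3.67 with vehicle. The A7 libraries were nearly equal and lay below both vehicle libraries. Its mean of 2.80 ± 0.02 with A7 was 1.21-fold below the 3.40 ± 0.38 of vehicle (SD, n = 2 each), and the log2 difference of -0.21 (SE 0.19, limma adjusted p = 0.856) did not pass. Among 3590 genes of like level 43% had a larger difference between groups. BCL2L1 was at 2.04 and 1.35 scaled FPKM with A7 and at 2.13 and 1.89 with vehicle, with overlapping groups and a log2 difference of -0.17 (SE 0.23, limma adjusted p = 0.903). Its direction turned to 0.017 without A7 replicate 2. In the later GENCODE 29 annotation 43% of BCL2L1 exon bases lie opposite ABALON, an antisense RNA not analysed here, and the library protocol names no step that marks the strand.

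The effector BAX varied more between replicates than between groups. It was at 19.8 and 9.79 scaled FPKM with A7 and at 5.38 and 16.2 with vehicle. The highest and the lowest value both belong to a replicate 1, and the groups overlap. The vehicle replicates differed 3.01-fold and the A7 replicates 2.02-fold. Of 2361 genes of like level 0.72% had a larger gap between the vehicle libraries and 1.95% between the A7 libraries. By fragments estimated from length and depth, about 7 and 22 in the vehicle libraries, vehicle replicate 2 stood at 3.22 times replicate 1 per depth (95% counting interval 1.33 to 8.93). For A7, with about 49 and 20 fragments, the ratio of replicate 2 to 1 was 0.526 (0.296 to 0.902). Both intervals leave out 1. The log2 difference between groups was 0.52 (SE 0.52, limma adjusted p = 0.870) and turned to -0.20 without vehicle replicate 1. Of the genes of like level 4.70% had a larger difference between groups. That share is close to the 4.11% of MCL1, although the BAX groups overlap.

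BAK1, the gene of the second effector, had nearly equal means in both groups. It was at 5.06 and 5.21 scaled FPKM with A7 and at 5.96 and 4.27 with vehicle, so both A7 libraries lay between the vehicle libraries. The log2 difference was 0.02 (SE 0.20, 95% interval -0.48 to 0.52, limma adjusted p = 0.990), and its sign turned after quantile normalization and without vehicle replicate 2. Reads from the processed pseudogene BAK1P1, 95.3% identical over 29.7% of the longest BAK1 transcript, could be counted with it.

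Among the BH3-only genes BAD differed most, and its values rest on few fragments. BAD, which frees the pore formers by binding BCL2 and BCL-XL, was at 2.34 and 2.31 scaled FPKM with A7 and at 0.861 and 0.875 with vehicle. Replicates were nearly equal and the groups lay far apart, 2.68-fold higher with A7. The log2 difference was 0.83 (SE 0.21, 95% interval 0.33 to 1.34, limma adjusted p = 0.773), which ranked 81 of 8952 by p. BAD reached the FPKM minimum only through its A7 libraries, so some difference was built into its being tested. These values rest on about 7 and 6 fragments with A7 and 1 and 2 with vehicle. Their ratio, corrected for depth, was 2.61, and its 95% counting interval of 0.716 to 14.3 includes 1, so a change of BAD was not detectable by counting at this depth. In GENCODE 29, 23.7% of BAD exon bases lie opposite exons of GPR137, which was at 0.383 and 0.641 scaled FPKM with A7 and at 1.06 and 0.720 with vehicle.

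**Figure D2:**
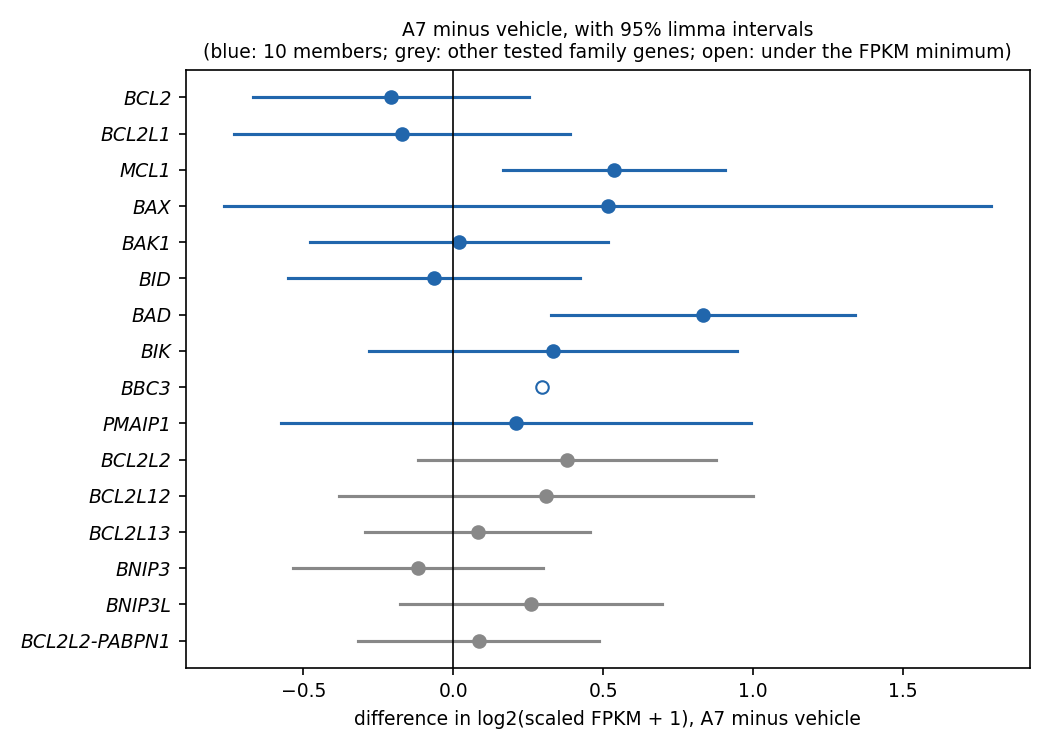
Difference in log2(scaled FPKM + 1), A7 minus vehicle, for the 10 members (blue) and the 6 other family genes that reached the FPKM minimum (grey), with 95% limma intervals as lines. The intervals of MCL1 and BAD leave out 0 before adjustment for 8952 genes, and BBC3 (open) was under the minimum and has no interval.

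BIK, a BH3-only protein of the endoplasmic reticulum and mitochondria, was the most abundant of its class. It was at 14.9 and 15.7 scaled FPKM with A7 and at 9.20 and 15.5 with vehicle. Vehicle replicate 1 was low and vehicle replicate 2 lay between the A7 libraries, so the groups overlapped. The log2 difference of 0.33 (SE 0.25, limma adjusted p = 0.830) turned to -0.016 without vehicle replicate 1. BID, which links death receptors to mitochondria once a caspase cuts it, was at 3.80 and 4.63 scaled FPKM with A7 and at 4.97 and 3.95 with vehicle. The groups overlapped, with a log2 difference of -0.06 (SE 0.20, limma adjusted p = 0.963) that turned to 0.11 with FPKM rescaled to TPM.

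The other 2 BH3-only genes, for NOXA and PUMA, were low. PMAIP1 was at 1.74 and 1.78 scaled FPKM with A7 and at 0.783 and 2.20 with vehicle, so both A7 libraries lay between the vehicle libraries. Its log2 difference was 0.21 (SE 0.32, limma adjusted p = 0.917), on about 32 fragments in all, and turned to -0.21 without vehicle replicate 1. BBC3 was at 1.18 and 0.891 scaled FPKM with A7 and at 0.442 and 0.900 with vehicle. It was under the FPKM minimum and was not tested, its groups overlapped, and about 18 fragments gave a ratio of A7 to vehicle of 1.56 (0.523 to 5.6).

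Several of these differences moved when 1 library was left out, and not only with vehicle replicate 1. The BAX difference fell to 0.045 without A7 replicate 1, and that of BAK1 turned to -0.18 without vehicle replicate 2. Vehicle replicate 1 was the lowest of the 4 libraries for 5 of the 10 members, BAX, BIK, BBC3, PMAIP1 and, narrowly, BAD, and was the lowest for 23.8% of all tested genes. Around each member's mean over the 4 libraries it stood at -0.97 for BAX, -0.51 for BIK, -0.53 for PMAIP1 and -0.35 for BBC3 on the log2 scale, against 0.46, 0.18, 0.32 and 0.05 in vehicle replicate 2. For BCL2L1, BAK1 and BID, in contrast, vehicle replicate 1 was the highest library. The part of the library itself in these values was not tested.

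**Figure D3:**
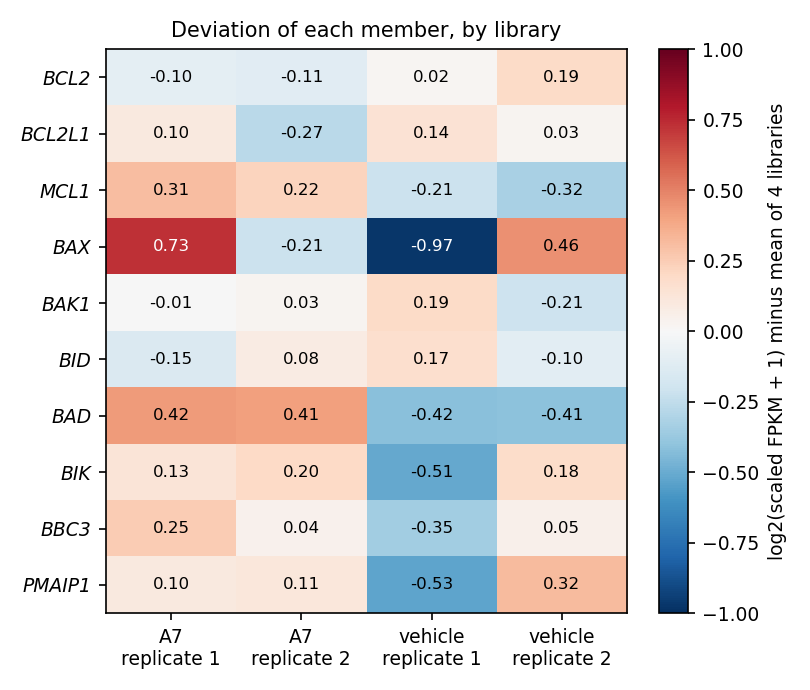
Deviation of each member (rows) in each library (columns) from its mean over the 4 libraries, as log2(scaled FPKM + 1), red above and blue below the mean. BAX, BIK, BBC3 and PMAIP1 are low in vehicle replicate 1 and not in vehicle replicate 2, whereas MCL1, BAD and BCL2 have the same sign in both libraries of each group.

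In order of level, MCL1 averaged 13.9 scaled FPKM over the 4 libraries, BIK 13.8 and BAX 12.8, and these 3 do not differ beyond their spread. BAK1 followed at 5.13, BID at 4.34 and BCL2 at 3.10, and BID ranked 5 and BCL2 ranked 6 of the 10 in every library. BCL2L1 at 1.85, PMAIP1 at 1.63, BAD at 1.60 and BBC3 at 0.854 came last and changed places between libraries. MCL1 thus made up most of the survival members' summed level per length, and its mean level exceeded that of 69.8% of the tested genes, against 33.1% for BCL2 and 17.5% for BCL2L1.

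The balance of survival to death genes did not differ between the groups beyond the replicates. The 3 survival members summed to 22.0 and 20.2 scaled FPKM with A7 and to 16.9 and 16.3 with vehicle, and the 7 death members to 48.8 and 40.4 with A7 and to 27.6 and 43.9 with vehicle. The ratio of the sums was 0.451 and 0.502 with A7 and 0.613 and 0.371 with vehicle. The vehicle libraries lay on either side of both A7 libraries, and the difference of the log2 ratios was -0.0026 (exact two-sided permutation p = 1). Leaving out a library moved that difference between -0.37 and 0.36, with vehicle replicate 1 and A7 replicate 1 each turning its sign. With BAX left out of the death members the ratio was 0.757 and 0.663 with A7 and 0.761 and 0.587 with vehicle. The ratio of BCL2 to BAX was 0.143 and 0.285 with A7 and 0.582 and 0.227 with vehicle, again with overlap (exact permutation p = 0.667).

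Other ratios were chosen after their values were seen and are given as description. MCL1 to BAK1 stood at 3.39 and 3.09 with A7 and at 1.95 and 2.50 with vehicle, and BCL2 to BAD at 1.20 and 1.21 with A7 and at 3.64 and 4.19 with vehicle. Neither pair of groups overlapped. For BCL2 to BAD this followed from BCL2 being lower and BAD higher in both A7 libraries, so it adds no support. The vehicle values of that ratio rest on about 1 and 2 BAD fragments. With 2 libraries against 2 the exact permutation test cannot go below p = 0.333.

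**Figure D4:**
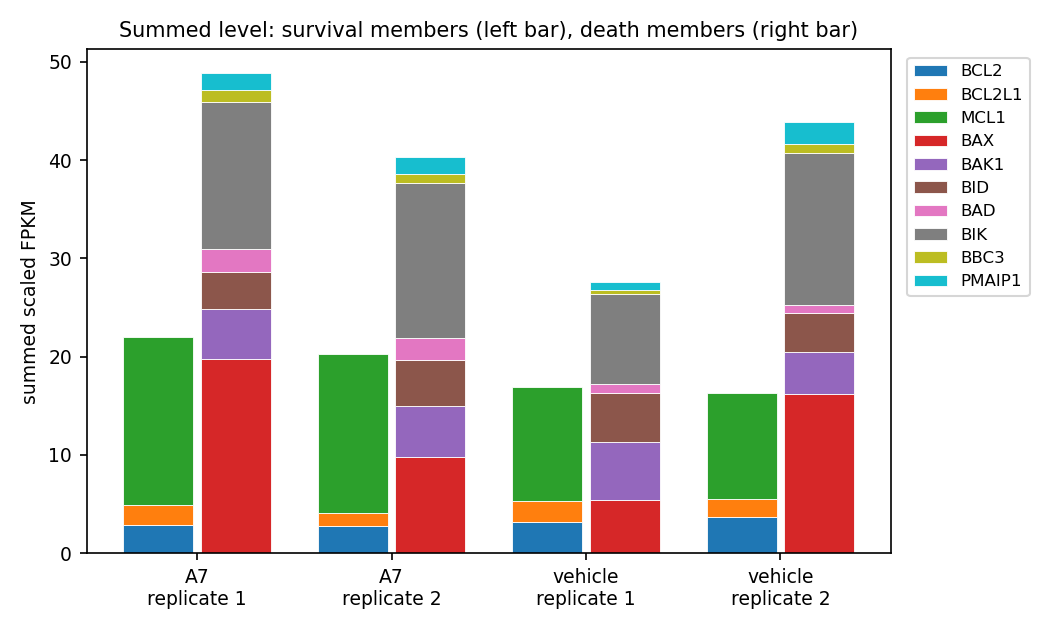
Summed scaled FPKM of the survival members (left bar) and the death members (right bar) in each library, coloured by gene, with bars from 0. MCL1 makes up most of each survival bar, and BAX and BIK set the height of the death bars, which is lowest in vehicle replicate 1 at 27.6.

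The depth behind each member decides what its values can show. MCL1 rested on about 444 fragments with A7 and 180 with vehicle. Its ratio per depth of 1.48 had a 95% counting interval of 1.24 to 1.77, the only one of the 10 that left out 1. Such intervals were not computed over all tested genes, so this count has no background share beside it. BCL2, with about 103 and 75 fragments, had a ratio of 0.826 (0.607 to 1.13). BIK stood at 1.24 (0.88 to 1.76) and BAX at 1.43 (0.915 to 2.29). The fragments are computed from the same FPKM, so only the intervals add to the folds. They leave out the spread between replicates, and amplified fragments are not independent molecules. They also depend on the median length of the coding transcripts in GENCODE 29, which for BAX range from 433 to 1358 bases and for BCL2 from 3209 to 7461.

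**Figure D5:**
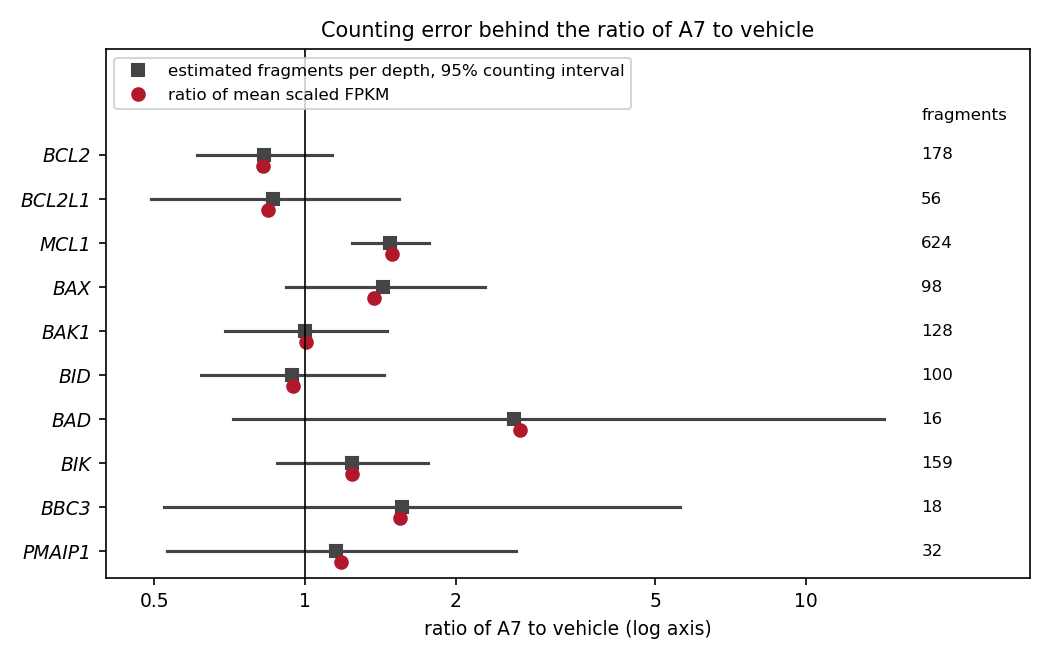
Ratio of A7 to vehicle (log axis) of each member, from estimated fragments per depth with a 95% exact counting interval (squares and lines) and from mean scaled FPKM (circles), with the estimated fragments over 4 libraries at the right. The interval of MCL1, with 624 fragments, leaves out 1, and that of BAD, with 16, runs from 0.716 to 14.3.

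None of the other members of the family passed. Of 14 further genes 6 reached the FPKM minimum, 5 of them averaging more and 1 less with A7. Among the 5 was BCL2L12, whose mean was 1.41 scaled FPKM with A7 and 0.954, under the minimum, with vehicle. Some difference was thus built into its being counted. Of the 6 genes 0 passed limma at an adjusted p under 0.05, with 0 at an unadjusted p under 0.05. Groups did not overlap for 2 of the 6, both higher, against 18.3% of all tested genes. BCL2L2, the survival gene of BCL-w, was at 2.31 and 2.19 scaled FPKM with A7 and at 1.61 and 1.39 with vehicle, without overlap (log2 difference 0.38, SE 0.20, limma adjusted p = 0.806). Its read-through transcript BCL2L2-PABPN1 was listed at 64.6 and 54.1 with A7 and at 61.0 and 50.9 with vehicle, while PABPN1 itself was at or below 0.612 in every library. The division of reads among these overlapping genes is therefore uncertain.

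BNIP3L and BNIP3 encode mitophagy receptors of the outer membrane, and neither passed. BNIP3L was at 17.5 and 19.6 scaled FPKM with A7 and at 13.5 and 17.3 with vehicle, without overlap, and BNIP3 at 10.3 and 9.15 with A7 and at 9.74 and 11.6 with vehicle, with overlap. BCL2L13, a mitophagy receptor in mammals, was at 13.1 and 13.7 with A7 and at 11.9 and 13.3 with vehicle, and BCL2L12 at 1.73 and 1.08 with A7 and at 0.634 and 1.27 with vehicle. BCL2L11, which encodes the BH3-only protein BIM, was under the minimum at 1.79 and 0.683 with A7 and at 0.702 and 0.398 with vehicle, with overlap. About 48 fragments with A7 and 12 with vehicle gave a BCL2L11 ratio of 2.41 (1.26 to 4.97). The A7 replicates differed as well, at 0.383 for replicate 2 over 1 (0.176 to 0.768). These counts use the median length of 5010 bases, while the 14 coding transcripts range from 243 to 5231. Shorter transcripts would mean fewer fragments and wider intervals, which could then include 1. The BCL2L11 intervals also have no background share beside them. BCL2L10 and BOK were listed at 0 in every library, and BCL2A1, BMF, HRK, BCL2L14 and BCL2L15 did not exceed 0.749 in any.

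Genes that bind or regulate the family were followed as a list. Of 28 tested genes of 30 listed, 11 averaged more and 17 less with A7, 5 and 5 of them without overlap (18.3% and 18.6% of all tested genes), with a median log2 difference of -0.05, and none passed limma at an adjusted p under 0.05. At an unadjusted p under 0.05 there were 2, DYNLL2 and BAG3, both higher, where 2.21% of all genes were called higher. DYNLL2, a dynein light chain that tethers the BH3-only protein BMF, was at 9.66 and 6.99 scaled FPKM with A7 and at 4.90 and 4.63 with vehicle (log2 difference 0.68, SE 0.20, limma adjusted p = 0.806). BAG3, a co-chaperone that binds BCL2, was at 25.1 and 21.8 with A7 and at 17.9 and 15.7 with vehicle. DYNLL1, the sister light chain that tethers BIM, was at 851 and 800 with A7 and at 934 and 1056 with vehicle. VDAC3, a channel of the outer mitochondrial membrane, was at 89.2 and 106 with A7 and at 113 and 128 with vehicle. In both pairs the A7 libraries lay apart from the vehicle libraries, but no difference of this list passed.

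Downstream of the pore, 13 of 15 genes for released proteins and the apoptosome were tested, 9 averaging more and 4 less with A7, and none passed limma at an adjusted p under 0.05. At an unadjusted p under 0.05 there was 1, ENDOG, lower, where 3.55% of all genes were called lower. ENDOG encodes a mitochondrial nuclease. It was at 0.645 and close to 0 (1.01e-05) scaled FPKM with A7 and at 2.74 and 2.40 with vehicle (log2 difference -1.47, SE 0.30, limma adjusted p = 0.579). ENDOG reached the minimum only through vehicle, so some difference was built into its being tested. About 3 fragments with A7 and 13 with vehicle gave a ratio of 0.139 (0.0254 to 0.505). These fragments are computed from the same FPKM, so the ratio is no separate support. XIAP, an inhibitor of caspases, was at 13.7 and 12.3 with A7 and at 10.5 and 10.1 with vehicle. CYCS, the gene of cytochrome c, was at 40.0 and 45.0 with A7 and at 46.4 and 63.3 with vehicle. Groups did not overlap for XIAP and CYCS, and in all for 7 of the 13, 5 higher and 2 lower, against 18.3% higher and 18.6% lower of all tested genes.

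Of 10 transcription factors known to act on members, 8 were tested, 5 averaging more and 3 less with A7, with a range of log2 differences of -0.27 to 0.29, and none passed limma, with 0 at an unadjusted p under 0.05. ESR1, the estrogen receptor gene, was at 5.36 and 5.20 scaled FPKM with A7 and at 4.28 and 4.79 with vehicle. MYC was at 4.06 and 4.79 with A7 and at 4.53 and 6.74 with vehicle, with overlap.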

How the data were processed

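RNA was sequenced from 4 libraries of LCC9 cells, 2 with A7 and 2 with vehicle. The deposited tables hold 1 FPKM value per gene and library, per the file headers. The submitters' processing notes name CASAVA 1.8.2, TopHat, Cufflinks 2.2.1 and build GRCh37 without saying what each was used for. The annotation and the treatment of multiply mapping reads were not given in the sources used here. The 14 lines of 23619 whose symbol was a number, at most 0.00539% of summed FPKM, were left out. Scaling factors were median ratios of each library to the genes' geometric means, taken over genes averaging at least 1 FPKM and never at 0. The 8952 genes averaging at least 1 FPKM were fitted with limma 3.58.1 (R 4.3.3, lmFit, eBayes with a trend) on log2(scaled FPKM + 1), which understates the change of low genes, with 2 residual and 3.89 prior degrees of freedom. The fit was tested on simulated data.

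Fragments were estimated as FPKM times the median basic coding transcript length of GENCODE 29 times depth, with relative depths read from the steps of low values, so they are rough. Intervals are exact (Clopper-Pearson, 95%). Copies were searched with blastn 2.17.0, and 0 members had a copy at 95% identity over 50% of the transcript. GENCODE 29 is of a later build than the tables and gave only lengths, overlaps and copies. All 10 members, the other family genes reaching the minimum, and the genes of smallest p of 3 further lists (4, 4 and 3) are named, except items that are not reported here. Members and lists were chosen with earlier results of these data known. Alternatives were other scalings, a pseudocount of 0.1, no filter, no trend, a replicate block and leaving out each library.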

Additional observations from a re-analysis of the deposited data

How the results depend on the processing

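Across 10 alternatives for 25 named genes the direction turned in 12 of 250 cases. No filter, no variance trend and the replicate block leave each log2 difference as it was, so they could not turn a direction. With all 4 libraries kept, no member or other named gene passed at a limma adjusted p under 0.05. The differences of MCL1, BAD, BCL2 and BBC3 kept their signs. They ranged from 0.48 to 0.73 for MCL1, 0.75 to 1.33 for BAD and -0.30 to -0.04 for BCL2. Since the groups of MCL1, BAD and BCL2 did not overlap, leaving out 1 library could hardly turn these signs, so their keeping adds no support. On a TPM scale, where the median over all genes shifted to 0.17, BID turned to 0.11 and BNIP3 to 0.085, and after quantile normalization BAK1 turned to -0.013. Leaving out 1 library moved BAX between -0.20 and 1.23, BIK between -0.016 and 0.68, PMAIP1 between -0.21 and 0.63, BAK1 between -0.18 and 0.22, BID between -0.19 and 0.069, BCL2L1 between -0.36 and 0.017, BCL2L2-PABPN1 between -0.041 and 0.21, the difference of the survival to death ratio between -0.37 and 0.36, and the median of the 9 tested members, 0.21, between -0.016 (without vehicle replicate 1) and 0.48. With a pseudocount of 0.1 that median was 0.36. The cause was not tested.

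Over all genes 2 passed. With a pseudocount of 0.1 or without the variance trend 1 passed, with no filter 0 (1038 at an unadjusted limma p under 0.05), and leaving out 1 library gave 0 to 11. With the replicate block 0 of 8952 genes passed (862 at an unadjusted limma p under 0.05) and 0 members passed (2 at that unadjusted p). Deviations of same-numbered libraries correlated at only 0.091 over 2 pairs, so the numbers are not taken to pair them. Depth limits BAD, BBC3 and PMAIP1 most, with 16, 18 and 32 fragments.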
